A study of Mus musculus with 6 samples.

Results

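The genes described here encode the major histocompatibility complex (MHC, called H2 in the mouse) and the proteins that load it with peptide, in hearts of young and old mice. They were chosen by name: the 30 genes of the deposited count table whose symbol starts with H2-, plus B2m, Cd74, Ciita, Nlrc5, Tap1, Tap2, Tapbp, Erap1, Ctss and Ifi30. That made 40 genes of the 18005 listed. Class I genes number 26, class II genes 13, and H2-Ke6 belongs to neither class.

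RNA was taken from hearts of 3 young and 3 old mice. The labels describe both groups as WT and without treatment, so age is the only stated difference, and the series title names pathological hypertrophy of the aged heart. The labels state no age, strain or sex. A mirVana kit served for the extraction and the TruSeq Stranded mRNA kit, which enriches polyadenylated RNA, for the libraries. The whole heart was the labelled tissue, and the cardiomyocyte markers Myh6, Actn2, Tnnt2, Tnni3 and Ryr2 were abundant in every library.

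Class I molecules sit on nearly all nucleated cells and show peptides from the cell interior to CD8+ T cells. Their heavy chain pairs with B2m, and the peptides are cut by the proteasome and trimmed by Erap1, carried into the endoplasmic reticulum by the Tap1 and Tap2 transporter and loaded with the help of Tapbp. Class II molecules, made mainly by macrophages, dendritic cells and B cells, show peptides from endosomes to CD4+ T cells. They travel with the invariant chain Cd74, which the protease Ctss cuts down, and H2-DM then exchanges its last fragment for peptide. Nlrc5 is the coactivator of class I promoters and Ciita that of class II promoters, and interferon-gamma raises both.

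Libraries held 11295280 to 12514005 counts, so that 1 count was worth 0.0774 to 0.0885 CPM (counts scaled to a common library total with TMM factors, which correct for library composition). Old and young hearts were compared with edgeR's quasi-likelihood test, and a gene was called at a Benjamini-Hochberg adjusted p under 0.05 over all 12893 genes tested. Each fold change is given as log2(old over young) ± its standard error. The labels name separate mice but not how they were housed or processed, so the p-values measure only the spread between these 6 samples. Replicates differed by more than counting noise. In bulk tissue, fewer cells of a type and less RNA per cell cannot be told apart.

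Most MHC genes were not called. Of the 5 calls, 4 fell on helper genes and 1 on a chain, a split that was not tested. In old hearts the class II endosomal enzymes Ifi30 and Ctss rose. The class I chain H2-T24, the peptide transporter Tap1 and the class II coactivator Ciita fell. Of the 40 genes, 28 had enough counts to be tested, and 5 of these were called (17.9%), against 22.0% of all tested genes. The 2 higher members compare with 11.4% of all tested genes called higher, and the 3 lower members with 10.6% called lower. The young and old libraries did not overlap for 6 of the 28 (21.4%), against 39.9% of all tested genes. The shares over all 28 tested members lay near or under the background, so the members as a set did not stand apart. The median log2 fold change was 0.13 over the members and -0.01 over all tested genes.

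**Figure D1:**
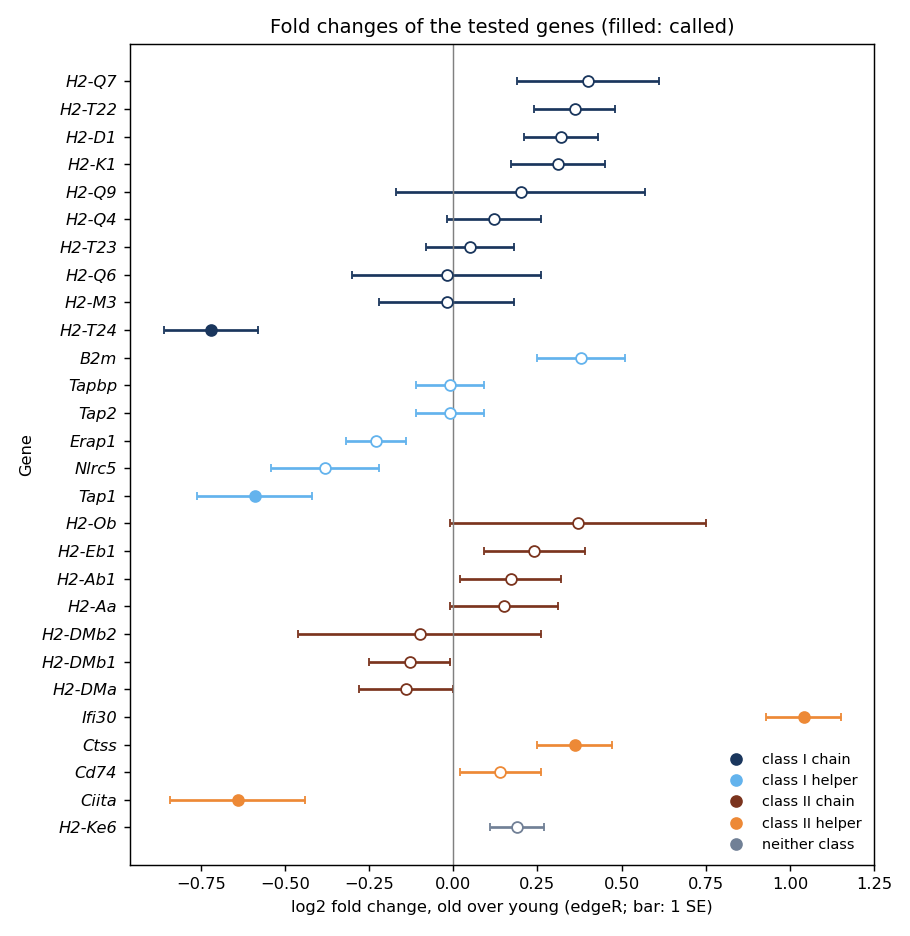
log2 fold change, old over young, of the 28 tested genes, grouped by class and role. Points are edgeR estimates, bars are 1 standard error, and filled points are called genes: Ifi30 and Ctss lie to the right of 0, and H2-T24, Tap1 and Ciita to the left.

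Nlrc5 and Ciita are known to act through a shared set of boxes in the promoters of the main class I and class II genes, and the stretches that carry it are printed here because the results set chains beside these coactivators. RefSeq promoter windows (250 bases before to 50 after a gene's start, GRCm38.p6) matched 32 of the 40 genes and 21 of the 28 tested. Both strands were searched for TGACG, the core of the X2 box, and for ATTGG, the Y box core bound by NF-Y. Of 32851 windows of the same length, 20.8% held TGACG, 37.4% held ATTGG and 0.435% held ATTGG starting 20 to 30 bases after the start of TGACG on 1 strand. Counted by gene, with any of its windows, these shares of 27025 genes were 23.0%, 41.1% and 0.488%. The spacing was chosen after the sequences were seen. Among tested members the spaced pair was found in H2-K1, H2-D1, H2-Q7, H2-M3, B2m and H2-Aa. ATTGG, with or without TGACG, was in 8 of 8 class I chains and 6 of 6 class II chains that were tested and matched. It was in 3 of 4 class I helpers, Erap1 being without it, and in 0 of 2 class II helpers, Ifi30 and Ctss. Ciita and Cd74 had no matched window. Capitals mark the spaced pair, or in H2-Eb1 the ATTGG alone, further copies being left in lower case, and each sequence runs 5′ to 3′ along the gene's strand:
H2-K1, chr17:34000348-34000413, minus strand: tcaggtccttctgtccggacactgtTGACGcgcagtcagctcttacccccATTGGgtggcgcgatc
H2-D1, chr17:35262968-35263047, plus strand: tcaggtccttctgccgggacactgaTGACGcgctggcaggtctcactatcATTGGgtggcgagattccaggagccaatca
B2m, chr2:122147584-122147663, plus strand: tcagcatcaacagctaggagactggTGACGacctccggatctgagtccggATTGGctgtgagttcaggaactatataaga
H2-Aa, chr17:34287842-34287922, minus strand: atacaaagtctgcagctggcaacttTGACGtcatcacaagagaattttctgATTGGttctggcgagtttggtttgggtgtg
H2-Eb1, chr17:34305758-34305837, plus strand: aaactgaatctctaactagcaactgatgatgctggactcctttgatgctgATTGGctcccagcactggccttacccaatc
In H2-K1, H2-D1 and B2m the 2 cores start 25 bases apart, and in H2-Aa 26 bases apart. The H2-Eb1 stretch holds ATTGG without TGACG. A match describes letters in a window and is not evidence of binding in these hearts.

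In the edgeR fit of all 6 libraries no class I chain rose, and 1 of the 10 tested fell. DESeq2 called H2-D1 and H2-T22 higher (adjusted p = 0.0233 and 0.0384), the edgeR fit with no filter on low counts called the same 2 chains, and RLE factors called H2-T22. The classical chains H2-K1 and H2-D1, which present most peptides to CD8+ T cells, were the most abundant chains on the per-length scale. Mean FPKM (counts per length of transcript and library total) of H2-D1 was 255 in young and 302 in old hearts, and that of H2-K1 was 152 and 178. H2-Q4 followed at 42.5 and 43.8, H2-T23 at 39.6 and 38.8, and H2-T22 at 14.0 and 17.0. H2-K1 and H2-D1 together made up 78.2% ± 0.971 of the summed chain FPKM in young hearts and 80.5% ± 0.543 in old ones (SD, n = 3).

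H2-K1 measured 311, 333 and 300 CPM in young 1, 2 and 3 and 449, 291 and 430 CPM in old 1, 2 and 3. Old 1 and old 3 lay above every young heart, and old 2 lay below all of them. Its log2 fold change was 0.31 ± 0.14 (adjusted p = 0.13 by edgeR, interval at 95% 0.01 to 0.61). H2-D1 measured 426, 460 and 407 CPM in young and 590, 442 and 582 CPM in old hearts. The same 2 old hearts were high, and old 2 fell inside the young range. The log2 fold change of H2-D1 was 0.32 ± 0.11 (adjusted p = 0.06 by edgeR). B2m, the light chain shared by all class I molecules, measured 553, 641 and 511 CPM in young and 812, 592 and 819 CPM in old hearts. Old 1 and old 3 again lay above every young heart and old 2 inside their range, with a log2 fold change of 0.38 ± 0.13 (adjusted p = 0.052 by edgeR). B2m was called higher in 5 of the 17 alternatives: RLE factors, no filter, DESeq2, and without young 2 or old 2, with adjusted p-values from 0.00601 to 0.243 over all 17. H2-T22, a nonclassical chain recognised by some gamma-delta T cells, measured 42.71, 45.77 and 37.15 CPM in young and 60.47, 43.98 and 56.94 CPM in old hearts. The difference of 0.36 ± 0.12 on the log2 scale also missed the threshold (adjusted p = 0.051 by edgeR).

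**Figure D2:**
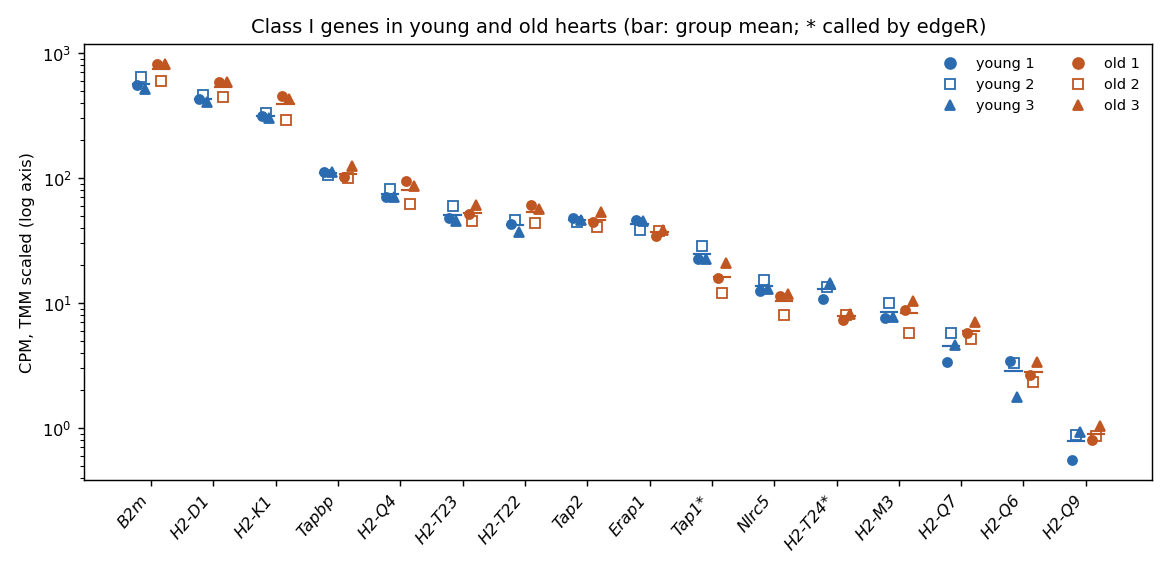
CPM on a log axis of the 16 tested class I genes in each library, ordered by level. Blue points are young and orange points old hearts, with circles for replicate 1, open squares for replicate 2 and triangles for replicate 3, and bars are group means. The old 2 square sits below the other old hearts for H2-K1, H2-D1 and B2m, and the H2-T24 and Tap1 points of all old hearts sit below those of all young hearts.

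H2-T24, a nonclassical class I gene, was the only chain that fell. It measured 10.85, 13.44 and 14.47 CPM in young and 7.26, 8.04 and 8.23 CPM in old hearts. All old hearts lay below all young hearts, and old 2 did not stand apart. The mean went from 12.9 ± 1.87 to 7.84 ± 0.515 CPM (SD, n = 3), or -0.72 ± 0.14 on the log2 scale (adjusted p = 0.0043 by edgeR). The call was made under all 17 alternatives, between -0.83 and -0.62. H2-T24 overlaps the unnamed transcript A930015D03Rik in the GENCODE M21 annotation, and the strand setting of the counting is not given, so reads of the overlap cannot be told apart.

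The remaining tested chains had fold changes between -0.02 and 0.40 on the log2 scale, none called. H2-Q7, a Qa-2 gene, had the largest at 0.40 ± 0.21 (adjusted p = 0.20 by edgeR). H2-Q4 measured 70.82, 81.53 and 70.35 CPM in young and 93.85, 61.44 and 86.58 CPM in old hearts, again with old 2 lowest. H2-T23, which makes the Qa-1 ligand of NKG2 receptors, had 0.05 ± 0.13, H2-Q6 -0.02 ± 0.28, H2-Q9 0.20 ± 0.37, and H2-M3, which presents formylated bacterial peptides, -0.02 ± 0.20. H2-K1 and H2-D1, the Q genes and the T genes are close copies of each other. How shared reads were placed is not given in the sources used here, so the split between copies is uncertain. The H2 region differs between mouse strains, and a part of strain in these values was not tested. The H2-K1 share of H2-K1 and H2-D1 counts was 42.2% ± 0.213 in young hearts and 41.8% ± 1.89 in old ones (SD, n = 3), with overlap.

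Another 10 class I chains were too low to test. H2-M9, H2-M10.3 and H2-M11 had no count in any library, where 3 counts, the limit that a count of 0 allows, equal 0.232 to 0.265 CPM. H2-M2, H2-M5, H2-Q1, H2-Q2, H2-T3, H2-Q10 and the pseudogene H2-T-ps had counts in some libraries. The highest value among them was 1.56 CPM, for H2-T-ps in old 3. At this depth no difference in these genes was detectable.

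Among the class I genes that supply and load peptide, 1 was called. Tap1, 1 of the 2 subunits of the peptide transporter, fell, while its partner Tap2 was not called. Tap1 measured 22.33, 28.64 and 22.45 CPM in young and 15.94, 11.92 and 20.71 CPM in old hearts. Every old heart lay below every young heart, old 2 being lowest and old 3 closest to the young range. The log2 fold change was -0.59 ± 0.17 (adjusted p = 0.028 by edgeR). Tap1 was no longer called when young 2 (-0.47), young 3 (-0.65), old 1 (-0.57) or old 2 (-0.41) was left out, or on the unfiltered FPKM values (-0.69). Tap2 measured 48.18, 44.45 and 45.97 CPM in young and 44.36, 40.27 and 53.12 CPM in old hearts, a log2 fold change of -0.01 ± 0.10 (adjusted p = 0.96 by edgeR).

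Nlrc5, the class I coactivator, measured 12.49, 15.37 and 13 CPM in young and 11.42, 8.04 and 11.87 CPM in old hearts. The groups did not overlap, yet the log2 fold change of -0.38 ± 0.16 was not called (adjusted p = 0.099 by edgeR). It was not called under any of the 17 alternatives. Erap1, the aminopeptidase that trims peptides in the endoplasmic reticulum, measured 43.2 ± 4.27 CPM in young and 36.8 ± 2.34 CPM in old hearts (SD, n = 3). Its log2 fold change was -0.23 ± 0.09 (adjusted p = 0.10 by edgeR). It was called lower without young 2 and with library size alone, at -0.31 in both. Tapbp, or tapasin, which bridges the transporter and the empty class I molecule, had a log2 fold change of -0.01 ± 0.10. B2m overlaps Patl2 and Erap1 overlaps Cast in the GENCODE M21 annotation, and their shared reads cannot be told apart for the same reason.

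Tap1 shares its promoter with the immunoproteasome gene Psmb9, which runs the other way, and the 225 bases between their starts are printed because both measured lower. Capitals mark CCAAT and TGACG on the Tap1 strand:
Tap1 and Psmb9, chr17:34187331-34187555, plus strand: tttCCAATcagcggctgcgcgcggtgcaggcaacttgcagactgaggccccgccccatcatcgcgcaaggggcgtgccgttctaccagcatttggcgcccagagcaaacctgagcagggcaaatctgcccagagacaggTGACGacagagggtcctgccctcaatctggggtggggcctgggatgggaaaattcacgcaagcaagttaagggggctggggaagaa
Psmb9 measured 17.0 ± 1.05 CPM in young and 12.6 ± 4.37 CPM in old hearts (SD, n = 3). Its log2 fold change of -0.44 ± 0.19 was not called (adjusted p = 0.12 by edgeR). The 2 genes overlap in the GENCODE M21 annotation, so without the strand setting their reads cannot be told apart there.

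No class II chain was called, and none of the 7 tested reached an unadjusted p under 0.05 by edgeR. Among the class I chains 4 of 10 did so, H2-K1, H2-D1 and H2-T22 upward and H2-T24 downward. H2-Aa and H2-Ab1, the alpha and beta chains of I-A, and H2-Eb1, the beta chain of I-E, were the abundant class II chains. They made up 96.2% ± 0.446 of the summed class II chain FPKM in young hearts and 96.8% ± 0.571 in old ones (SD, n = 3). H2-Aa measured 138, 191 and 152 CPM in young and 222, 135 and 175 CPM in old hearts, with the highest and the lowest heart both old. Its log2 fold change was 0.15 ± 0.16 (adjusted p = 0.55 by edgeR, interval at 95% -0.21 to 0.50). H2-Ab1 measured 129, 167 and 133 CPM in young and 198, 125 and 160 CPM in old hearts, at 0.17 ± 0.15 (adjusted p = 0.44 by edgeR). H2-Eb1 measured 116, 149 and 123 CPM in young and 190, 121 and 150 CPM in old hearts, at 0.24 ± 0.15 (adjusted p = 0.26 by edgeR). All 3 chains ordered the old hearts alike, old 1 highest and old 2 lowest. Their intervals allow a moderate rise or a small fall.

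Cd74, the invariant chain, measured 360, 439 and 381 CPM in young and 503, 363 and 437 CPM in old hearts. It took the same order, with a log2 fold change of 0.14 ± 0.12 (adjusted p = 0.42 by edgeR). H2-DMa, H2-DMb1 and H2-DMb2, the chains of the peptide exchange factor, had log2 fold changes of -0.14 ± 0.14, -0.13 ± 0.12 and -0.10 ± 0.36, none called. The 2 beta chains are close copies, and H2-DMa overlaps Brd2 in that annotation. H2-Ob, a chain of the inhibitor of H2-DM, measured 0.37 ± 0.38 on that scale at 1.25 to 3.73 CPM. H2-Oa and H2-Eb2 stayed under 1 CPM in every library and were not tested.

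**Figure D3:**
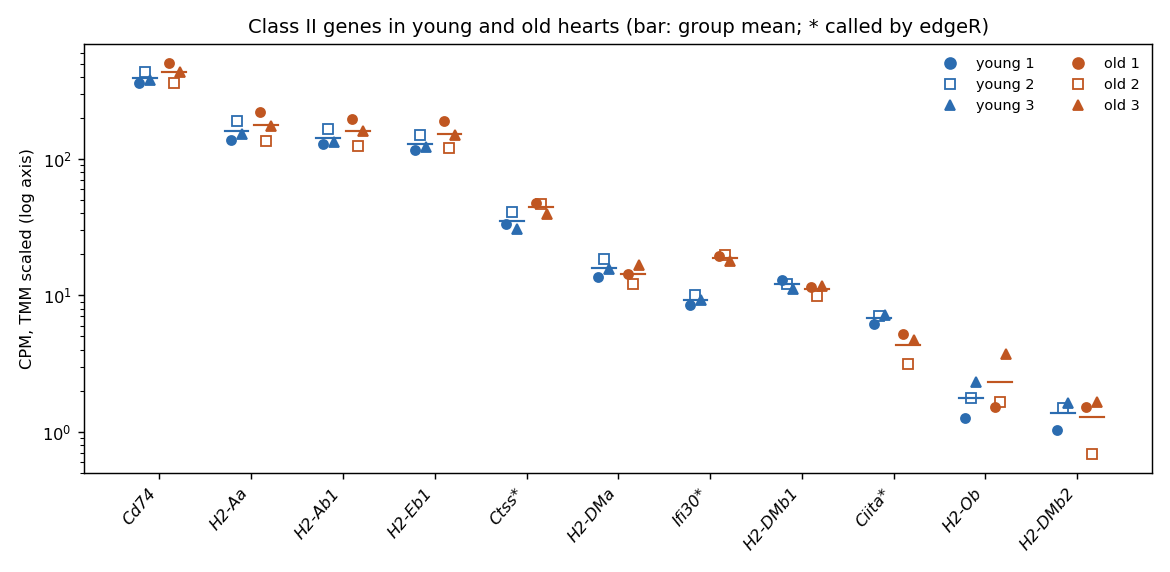
CPM on a log axis of the 11 tested class II genes in each library, ordered by level. Blue points are young and orange points old hearts, with circles for replicate 1, open squares for replicate 2 and triangles for replicate 3, and bars are group means. All old points lie above all young points for Ifi30 and below them for Ciita, while the chains and Cd74 overlap.

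The genes that act on class II rather than form it included the calls. Ifi30, also called GILT, a thiol reductase that opens disulfide bonds of antigens in endosomes, rose. It measured 8.43, 10.02 and 9.21 CPM in young and 19.30, 19.70 and 17.85 CPM in old hearts. All old hearts were well above all young hearts, and the hearts of a group lay close together. The mean went from 9.22 ± 0.791 to 19.0 ± 0.973 CPM (SD, n = 3), which is 2.06-fold, or 1.04 ± 0.11 on the log2 scale (adjusted p = 8e-05 by edgeR). It was called under all 17 alternatives, between 0.89 and 1.10.

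Ctss, cathepsin S, the protease that trims the invariant chain, measured 33.26, 40.76 and 30.65 CPM in young and 47.90, 46.49 and 39.52 CPM in old hearts. Old 3 lay below young 2, so the groups overlapped. The log2 fold change was 0.36 ± 0.11 (adjusted p = 0.043 by edgeR). Leaving out young 1 (0.32), young 3 (0.27), old 1 (0.31) or old 2 (0.33) ended the call, as did upper-quartile factors, library size alone and the FPKM values.

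Ciita, the coactivator that class II promoters require, measured 6.17, 7.03 and 7.12 CPM in young and 5.22, 3.11 and 4.68 CPM in old hearts. Each old heart lay below each young heart. The mean went from 6.77 ± 0.525 to 4.34 ± 1.10 CPM (SD, n = 3), or -0.64 ± 0.20 on the log2 scale (adjusted p = 0.037 by edgeR). Leaving out young 1 (-0.71), young 2 (-0.62), young 3 (-0.60) or old 2 (-0.44) ended the call, as did DESeq2 (-0.64) and the unfiltered FPKM values (-0.63). With a minimum mean FPKM of 1, Ciita was not tested. Ciita overlaps Dexi in the GENCODE M21 annotation, and reads of the overlap cannot be told apart without the strand setting.

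H2-Ke6, also named Hsd17b8, carries the H2- prefix only for its place in the complex and encodes a dehydrogenase of steroids and fatty acids. It measured 81.28, 87.76 and 85.52 CPM in young and 101, 88.92 and 100 CPM in old hearts. The groups did not overlap, and the log2 fold change of 0.19 ± 0.08 was not called (adjusted p = 0.12 by edgeR).

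The old hearts differed among themselves in the chains. Old 2 was the lowest old library for 8 of the 10 tested class I chains and 6 of the 7 class II chains, against 35.2% of all tested genes. Over the class I chains the median deviation from each gene's mean over young hearts was 0.20 in old 1, -0.13 in old 2 and 0.28 in old 3 on the log2 scale. Over the class II chains it was 0.11, -0.23 and 0.17. Among young hearts, young 2 was the highest for 7 of 10 and 4 of 7, with medians of 0.13 and 0.21. Old 1 and old 3 both exceeded all young hearts for 5 of 10 class I chains and 1 of 7 class II chains, against 24.6% of all tested genes. H2-T24 and the enzymes Ifi30 and Ctss did not have old 2 as their lowest old library.

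**Figure D4:**
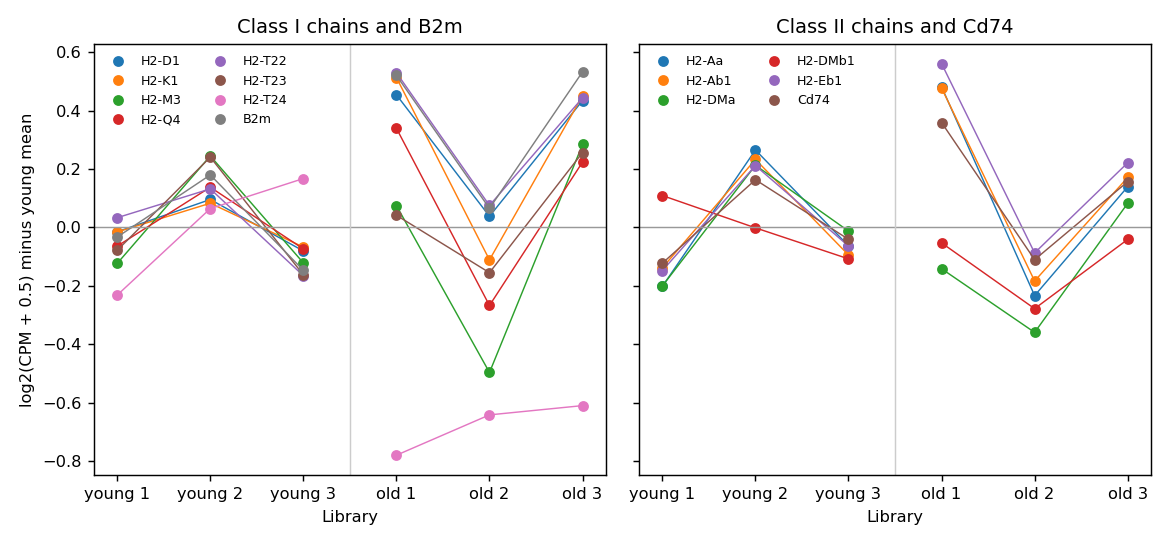
log2(CPM + 0.5) of each gene in each library minus its mean over young hearts, for class I chains with B2m (left) and class II chains with Cd74 (right). The tested chains of lowest level, H2-Q6, H2-Q7, H2-Q9, H2-DMb2 and H2-Ob, are not drawn. Lines join the points of 1 gene and imply no order of the hearts. In both panels most genes dip at old 2, while H2-T24 lies below the young hearts in all old hearts.

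Without old 2, edgeR called 6 members higher, H2-K1, H2-D1, H2-T22, H2-Eb1, B2m and Ifi30, and 1 lower, H2-T24, of 29 tested. The background in that fit was 19.0% of all tested genes called, 10.2% higher and 8.73% lower. The log2 fold changes were 0.49 for H2-K1, 0.45 for H2-D1, 0.50 for H2-T22, 0.53 for B2m and 0.40 for H2-Eb1. Tap1 (-0.41), Ciita (-0.44) and Ctss (0.33) were then not called. Leaving out old 1 or old 3 instead called no chain higher. The labels give nothing that sets old 2 apart, and leaving it out was 1 of 6 such fits.

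Within each heart, the chains stood higher against their coactivators in old than in young hearts. The ratio of H2-K1 and H2-D1 CPM to Nlrc5 CPM was 59.0, 51.5 and 54.4 in young and 91.0, 91.2 and 85.2 in old hearts. Old 2 lay with the other old hearts here, since its chains and its Nlrc5 were both low. The ratio to Tap1 CPM was 33.0, 27.7 and 31.5 in young and 65.2, 61.4 and 48.9 in old hearts. The summed H2-Aa, H2-Ab1 and H2-Eb1 CPM per Ciita CPM was 62.2, 72.2 and 57.3 in young and 117, 122 and 104 in old hearts. Tap1 per Tap2 was 0.464, 0.644 and 0.488 in young and 0.359, 0.296 and 0.390 in old hearts. None of these 4 ratios overlapped between the groups. Nlrc5, Tap1 and Ciita were each already lower in every old heart than in every young heart, so the separation of the ratios largely follows from these genes. Of single tested genes, 39.9% did not overlap, and no such share was computed for ratios. The 4 ratios were chosen with the gene results in view, so they carry no test. Their sizes depend on gene length as well as level, and only the shift between groups is comparable.

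**Figure D5:**
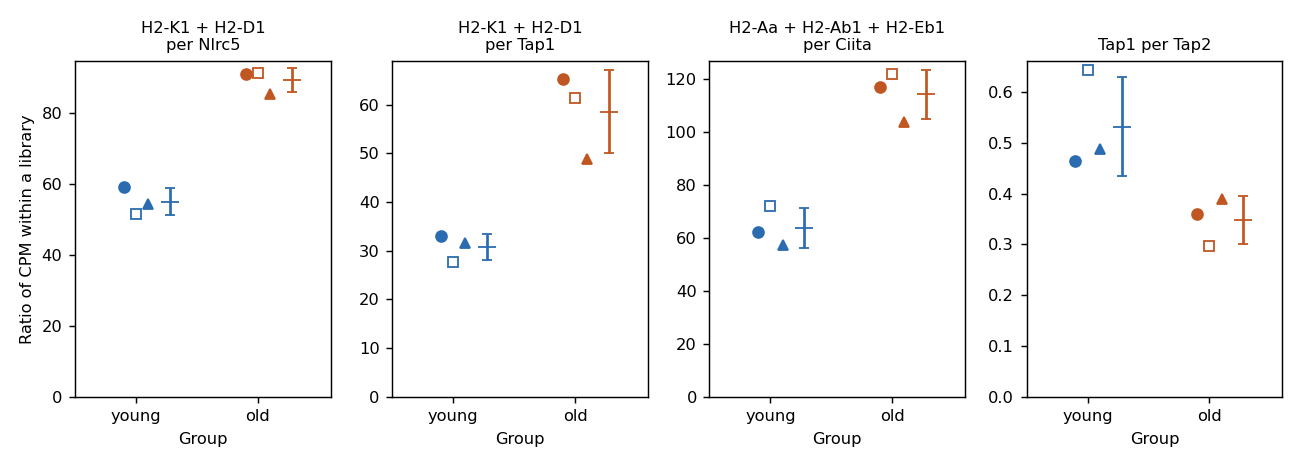
Ratios of CPM within each library, with axes from 0: H2-K1 and H2-D1 per Nlrc5, the same per Tap1, H2-Aa, H2-Ab1 and H2-Eb1 per Ciita, and Tap1 per Tap2. Circles, open squares and triangles are replicates 1, 2 and 3, and bars are mean ± SD (n = 3): the first 3 ratios are higher and the last is lower in every old heart than in every young heart.

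Ratios between partner chains moved less. H2-Aa per H2-Ab1 CPM was 1.12 ± 0.0398 in young hearts and 1.10 ± 0.0178 in old ones (SD, n = 3), with overlap. Cd74 FPKM per summed H2-Aa, H2-Ab1 and H2-Eb1 FPKM was 0.822 ± 0.0382 and 0.808 ± 0.0596 (SD, n = 3), with overlap. B2m FPKM per summed class I chain FPKM was 1.30 ± 0.0597 and 1.41 ± 0.0155 (SD, n = 3), without overlap.

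Around the class I genes, the peptide supply list had 3 of 11 genes higher and 1 lower. Of all tested genes, 11.4% were called higher and 10.6% lower. The higher genes were the constitutive proteasome subunits Psmb5 (0.28 ± 0.08), Psmb6 (0.27 ± 0.08) and Psmb7 (0.25 ± 0.08). Leaving out young 1, young 3 or old 1 ended each of these calls, as did upper-quartile factors, library size alone and the FPKM values, and for Psmb7 also leaving out young 2 or old 3 and using no filter. Their inducible replacements were not called, Psmb8 at -0.11 ± 0.13 and Psmb10 at -0.03 ± 0.08, besides Psmb9. Lnpep, an endosomal aminopeptidase used in cross-presentation, fell by 0.74 on the log2 scale, from 86.2 ± 6.43 to 51.7 ± 11.9 CPM (SD, n = 3; adjusted p = 0.0029 by edgeR), under every alternative. None of the 7 folding and assembly genes (among them Calr, Canx and Pdia3) and none of the 6 tested class I-like genes (among them Fcgrt and Hfe) was called.

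Of the promoter factors, Rfx5, Nfya and Creb1 were not called. Rfx5 measured 7.13 ± 1.47 CPM in young and 7.12 ± 1.05 CPM in old hearts, Nfya 33.9 ± 2.23 and 36.3 ± 2.80 CPM, and Creb1 26.6 ± 0.42 and 27.6 ± 1.48 CPM (SD, n = 3). Of 9 tested interferon-gamma signalling genes, 2 rose and 0 fell, against 11.4% of all tested genes called higher and 10.6% called lower. Socs3, a feedback inhibitor of cytokine receptors, rose by 1.79 ± 0.27 and the NF-kappaB subunit Rela by 0.26 ± 0.08, the latter call held in 4 of 17 alternatives and in 1 of the 6 with a library left out (old 2). Ifng itself was counted in young 1 alone, at 0.08 CPM.

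Of 15 genes of endosomal proteolysis and class II traffic, 5 rose and 0 fell, against 11.4% of all tested genes called higher. Cst3, an inhibitor of cathepsins, rose by 0.37 ± 0.08, Ctsb by 0.38 ± 0.08, Ctsd by 0.35 ± 0.09 and the tetraspanin Cd82 by 0.40 ± 0.12. Lamp1 (0.24 ± 0.08) was the other call and is named after its values were seen. Ctsd lost its call without young 1 and on all FPKM values, and Cd82 without young 1, young 2, young 3 or old 1, with library size alone and on all FPKM values. Cst3 lost its call on the unfiltered FPKM values only. Of 8 tested genes of costimulation and T cell contact, 2 rose and 1 fell, against the same 11.4% called higher and 10.6% called lower. Icam1, an adhesion ligand of T cells, went from 22.4 ± 2.28 to 49.0 ± 13.2 CPM (1.13 ± 0.17, adjusted p = 0.00088 by edgeR). Icosl went from 12.5 ± 1.44 to 19.9 ± 2.91 CPM (0.67 ± 0.13). Cd274, the inhibitory ligand PD-L1, went from 25.3 ± 3.99 to 11.4 ± 5.20 CPM (-1.15 ± 0.24, adjusted p = 0.0055 by edgeR).

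Markers of 7 cell types are given by counts and sums, and the part of cell types in the results was not tested. The summed levels of young and old hearts overlapped for every list. The counts of called markers compare with 11.4% of all tested genes called higher and 10.6% called lower. Of 13 macrophage markers, 4 rose (Cd68, C1qa, C1qb and Lyve1) and 1 fell (Cx3cr1), and their summed level was 961 to 1063 CPM in young and 1046 to 1317 CPM in old hearts, lowest in old 3. None of the 4 tested dendritic cell markers of 7 was called (sums 35 to 39.9 and 28 to 46.7 CPM). Zbtb46 made up most of these sums, at 32.1 ± 1.77 CPM in young and 28.7 ± 10.3 CPM in old hearts (SD, n = 3). Of 6 B cell markers Blk rose, with sums of 6.79 to 10.5 CPM in young hearts and 7.08, 5.36 and 17.3 CPM in old 1, 2 and 3. Of 7 T and NK cell markers 3 were tested and 2 rose, Cd3e and Cd3g (sums 4.45 to 6.24 and 5.79 to 9.30 CPM, with old 2 lowest of the old hearts). Of 6 endothelial markers Kdr fell (sums 1653 to 1841 and 1256 to 1701 CPM). Of 5 fibroblast markers Lum rose and Tcf21 fell (sums 1225 to 1281 and 1235 to 1545 CPM), and of 5 cardiomyocyte markers Tnni3 rose (sums 25653 to 28316 and 27844 to 30406 CPM, highest in old 2). No marker was at 0 in all libraries.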

How the data were processed

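RNA sequencing of 3 young and 3 old mouse hearts was analysed from the deposited tables, mapped to groups by the labels. The authors deposited raw gene counts and, from the same libraries, FPKM values; the 12 per-sample files equalled their columns in the tables of all samples. The tools that the submitters' processing notes name are HISAT2, Bowtie2, StringTie, Cufflinks, HTSeq, Trimmomatic and DESeq, and the build is GRCm39. Their versions and roles, and the strand setting, were not given in the sources used here, so overlapping genes and near-identical copies are uncertain.

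The test of the counts was that of edgeR 4.0.16 under R 4.3.3 (filterByExpr, TMM, quasi-likelihood F test, no covariate), with Benjamini-Hochberg adjustment over 12893 genes and a threshold of 0.05. CPM are TMM scaled, as mean ± SD with n = 3. The script was tested on simulated data. Ratios and sums carry no test. Promoter sequences come from RefSeq, build GRCm38.p6, which is not the build of the counts, so coordinates are given for these sequences only.

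Members called, the classical chains, B2m, Cd74, Ciita and Nlrc5 are given in every library, other members by range and count, and called genes of 7 pathway lists up to 4 a list by smallest p. A result that this rule takes from the promoter factor list is not reported here. 7 marker lists are given by counts and sums. The members and lists were chosen with earlier results of these data known. Alternatives were RLE, upper-quartile or library-size factors, no filter, 1 CPM in 3 libraries, a replicate block, each library left out, DESeq2 1.42.0, limma-voom (limma 3.58.1), and limma on log2 deposited FPKM with a pseudocount of 1 or 0.1 for genes of mean FPKM at least 1, or 0.1 and no filter.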

Additional observations from a re-analysis of the deposited data

How the results depend on the processing

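No called member changed direction under the alternatives that tested it (17, but 15 for Ciita, which fell under the FPKM minimum in 2), and H2-T24 and Ifi30 were called in all of them. Counts of called members were small and moved. Class I: 4 called and 2 higher with RLE factors, 5 and 3 with no filter, 5 and 3 with DESeq2, 1 called and 1 lower with unfiltered FPKM. Class II: 1 higher with upper-quartile factors and with library size alone, 0 lower with DESeq2, and 1 called, 1 higher and 0 lower in each of the 3 FPKM fits, of which the 2 with a minimum did not test Ciita. With a library left out, class I had 1 to 5 called, 0 to 4 higher and 1 to 2 lower, and class II 1 to 3 called, 1 to 2 higher and 0 to 1 lower. The ends came without old 2 (4 class I higher) and without young 3 (1 called in each class). Over all genes, 1552 to 3041 were called, 850 to 1597 higher and 682 to 1444 lower, lowest without young 1 or young 3. The split of 1467 higher and 1368 lower became 1206 and 1796 with upper-quartile factors, 1032 and 2122 with library size alone, and 907 and 1678, 897 and 1660, or 840 and 1352 on FPKM, while the median of all genes stayed between -0.09 and 0.01. A replicate block gave 2734 called genes and the same 2 higher and 3 lower members. It ended the calls of Psmb7 (0.25, adjusted p = 0.0705) and Rela (0.26, adjusted p = 0.0552), and no other among the members and the pathway genes named by rule. Deviations of same-numbered hearts correlated at 0.078, 0.078 and 0.007, and those of differently numbered hearts at -0.141 to 0.064. With 3 hearts a group these values cannot tell whether the replicate numbers pair the hearts. The 12 members untested in the reported fit had few or no counts, at 1 count per 0.0774 to 0.0885 CPM. With no filter 37 members were tested, and none of these 12 was called. For the 3 members with no count in any library, absence and lack of depth cannot be told apart.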
